A study of Mus musculus with 12 samples.

Results

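The 35 genes described here are transcripts enriched in astrocytes, found in the 12 libraries by gene symbol through their Ensembl identifiers. All 35 were matched among the 37991 genes counted and all 35 passed the filter on low counts, among 16399 genes tested. The libraries were made from poly(A) RNA of the hippocampi of C57BL/6N mice, 6 labelled *Gadd45a*-WT (wild-type siblings) and 6 labelled *Gadd45a*-KO (*Gadd45a*-/-, born to interbred heterozygotes). By the labels, every mouse was 6 to 7 months old, had gone through the passive avoidance (PA) test, in which a mouse learns to stay away from a place where it was punished, and was killed 1 h later. No untrained mice are among these libraries, and the mutant allele is constitutive, so that neurons and glia carry it alike. The comparison asks whether the RNA of these astrocyte genes differed between the labels at this time, function by function.

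Astrocytes clear glutamate and GABA from the space around synapses, turn glutamate into glutamine that neurons take up again, buffer potassium and water through channels on their endfeet around vessels, and are coupled into a network by connexin gap junctions. They also carry cholesterol to neurons on lipoproteins, store glycogen, make metallothioneins that bind zinc and copper, and secrete matrix and synapse-organizing proteins. In whole hippocampus, astrocytes are a minority of the cells. A difference in a bulk library of this kind can come from fewer or more astrocytes or from less or more RNA per astrocyte, and these cannot be told apart here.

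Several facts about the libraries touch the results. Reads on *Gadd45a* itself went against the labels, with 2.19 to 3.43 CPM (reads of a gene scaled by library size to a common total) under the *Gadd45a*-WT label and 20.5 to 23.1 CPM under the *Gadd45a*-KO label, and counts per gene do not separate the replaced exons from the exon that the mutant allele keeps. Groups are therefore called by their labels, and every direction below rests on them. Between 44594261 and 55540601 reads per library fell on genes. The 10 hippocampus markers were all detected, and their summed level was 1298 to 1343 CPM under the *Gadd45a*-WT label and 995 to 1378 CPM under the *Gadd45a*-KO label. Only 1 of the 10 had a positive log2 fold change of *Gadd45a*-KO over *Gadd45a*-WT, and the median was -0.18. The sum was 1098, 995 and 1103 CPM in *Gadd45a*-KO replicates 2, 3 and 5, and 1303 to 1378 CPM in replicates 1, 4 and 6. A list of 10 thalamus markers summed to 106 to 151 CPM in all libraries but 2. *Gadd45a*-KO replicates 2 and 3 had 367 and 552 CPM. Replicate 3 of that label also had the highest sum of oligodendrocyte markers (7996 CPM, against 2522 to 4053 CPM in the other 11 libraries). Values without these replicates 2 and 3 are given for every gene of the astrocyte set with a log2 fold change over 0.1 in size. They are also given for some others of the set, but for no gene named from another list.

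None of the 35 astrocyte genes differed between the labels at 1% FDR, and none at 5% FDR, in edgeR on the label alone (quasi-likelihood test, p-values adjusted by Benjamini-Hochberg over all genes tested). Of all tested genes, 2.65% were called at 1% FDR and 4.55% at 5% FDR. DESeq2 called 0 of the 35 at 1% FDR (3.88% of its tested genes) and 1, *Slc1a2*, at 5% FDR (5.16% of its tested genes). With the replicate number as a block, edgeR called 0 at 1% FDR and 2, *Slc4a4* and *Aldh1l1*, at 5% FDR (5.48% of all tested genes). No source states that equal replicate numbers share a batch or litter. At an unadjusted p below 0.05, edgeR gave 9 of the 35, 6 with a positive and 3 with a negative log2 fold change of *Gadd45a*-KO over *Gadd45a*-WT. Of all tested genes, 13.7% passed that level, 4.34% with a positive and 9.35% with a negative value. Leaving out *Gadd45a*-KO replicates 2 and 3 gave 2 of the 35, where 9.23% of all tested genes passed.

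The differences were small. Log2 fold changes ran from -0.20 (*Dio2*) to 0.22 (*Fabp7*), with standard errors of 0.04 to 0.11. For 27 of the 35 genes the whole 95% confidence interval lay within a change of 1.25-fold in either direction, as it did for 65.7% of all tested genes. The widest bounds over the 35 genes were folds of 0.761 and 1.35. A positive log2 fold change was seen for 29 of the 35 genes and a negative one for 6, against 51.8% positive among all genes tested. The median was 0.04, against 0.00 over all tested genes. Markers of other non-neuronal cells were also mostly positive, with 10 of 10 for microglia, 9 of 9 for endothelial and mural cells, 10 of 10 for oligodendrocytes, 4 of 5 for their precursors, 6 of 7 for choroid plexus, 4 of 4 for ependymal cells and 6 of 6 for meninges, against 5 of 10 neuron markers and 1 of 10 hippocampus markers. Their part in the count of positive astrocyte genes was not tested. For 0 of the 35 genes did the groups of 6 libraries fail to overlap in CPM, where 3.31% of all tested genes had groups that did not overlap.

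**Figure D1:**
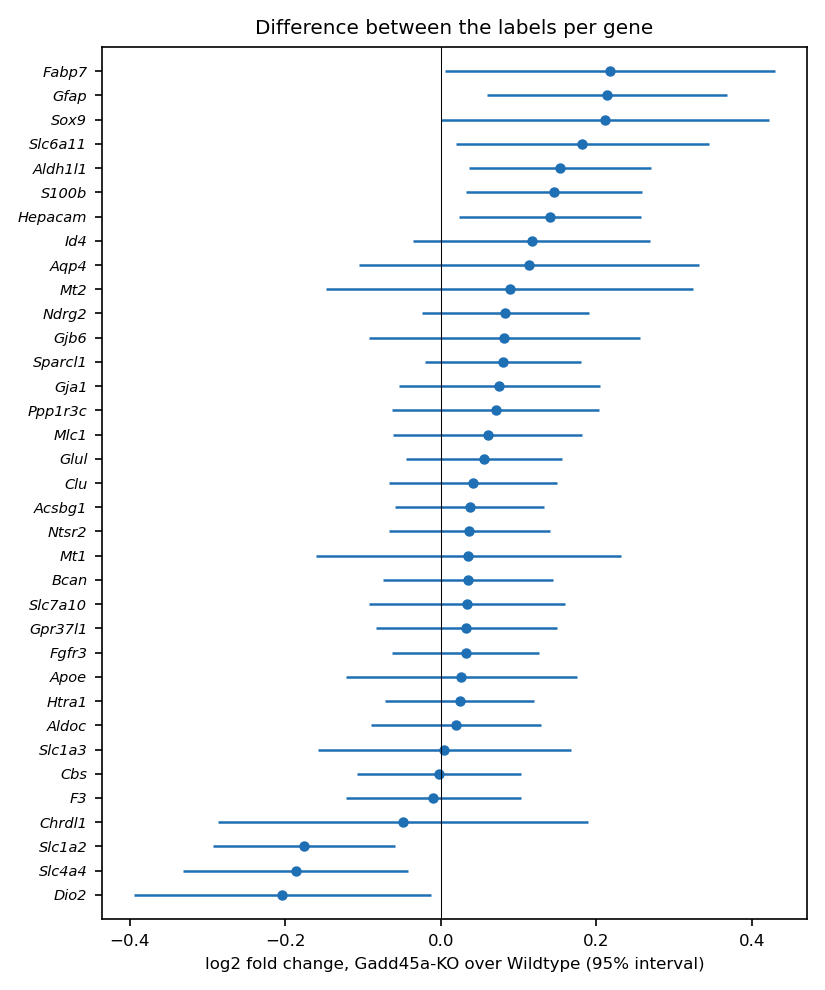
Log2 fold change of *Gadd45a*-KO over *Gadd45a*-WT (x axis, with its 95% confidence interval as a line) for each of the 35 astrocyte genes, in order of the estimate. The estimates run from -0.20 for *Dio2* to 0.22 for *Fabp7*, and 29 points lie above 0.

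Levels of different genes were compared per length, as CPM divided by the kilobases of the exon union (RPKM, median over the 12 libraries). The authors report read coverage biased toward the poly(A) end of transcripts, and no correction was made for it here. Levels of long and short transcripts are therefore compared only roughly. *Sparcl1*, which encodes a secreted synapse-organizing protein, had the highest level at 503 RPKM. The glutamine synthetase gene *Glul* followed at 414 RPKM and the apolipoprotein gene *Apoe* at 394 RPKM. *Ndrg2*, *Slc1a2*, *Clu* and *Aldoc* had levels between 192 and 281 RPKM, and the metallothionein genes *Mt1* and *Mt2* had 124 and 110 RPKM. *Clu* is a lipoprotein gene like *Apoe*, and *Aldoc* encodes a glycolytic enzyme. At the low end stood 2 genes, the transcription factor gene *Sox9* with 4.90 RPKM and *Chrdl1* with 0.849 RPKM, and the highest level was 593 times the lowest. *Bcan*, *Slc1a3*, *Gja1*, *Gfap* and *Gpr37l1* lay within 73.3 to 78.6 RPKM, a narrower range than any of them had between libraries. With the longest transcript as the length, *Apoe* came first at 562 RPKM and *Sparcl1* second at 503 RPKM, *Slc1a3* had 148 RPKM and *Gfap* 121 RPKM, and no gene moved by more than 5 places in the order. Read counts behind these values ran from 221 for *Chrdl1* to 173754 for *Slc1a2* in a single library.

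**Figure D2:**
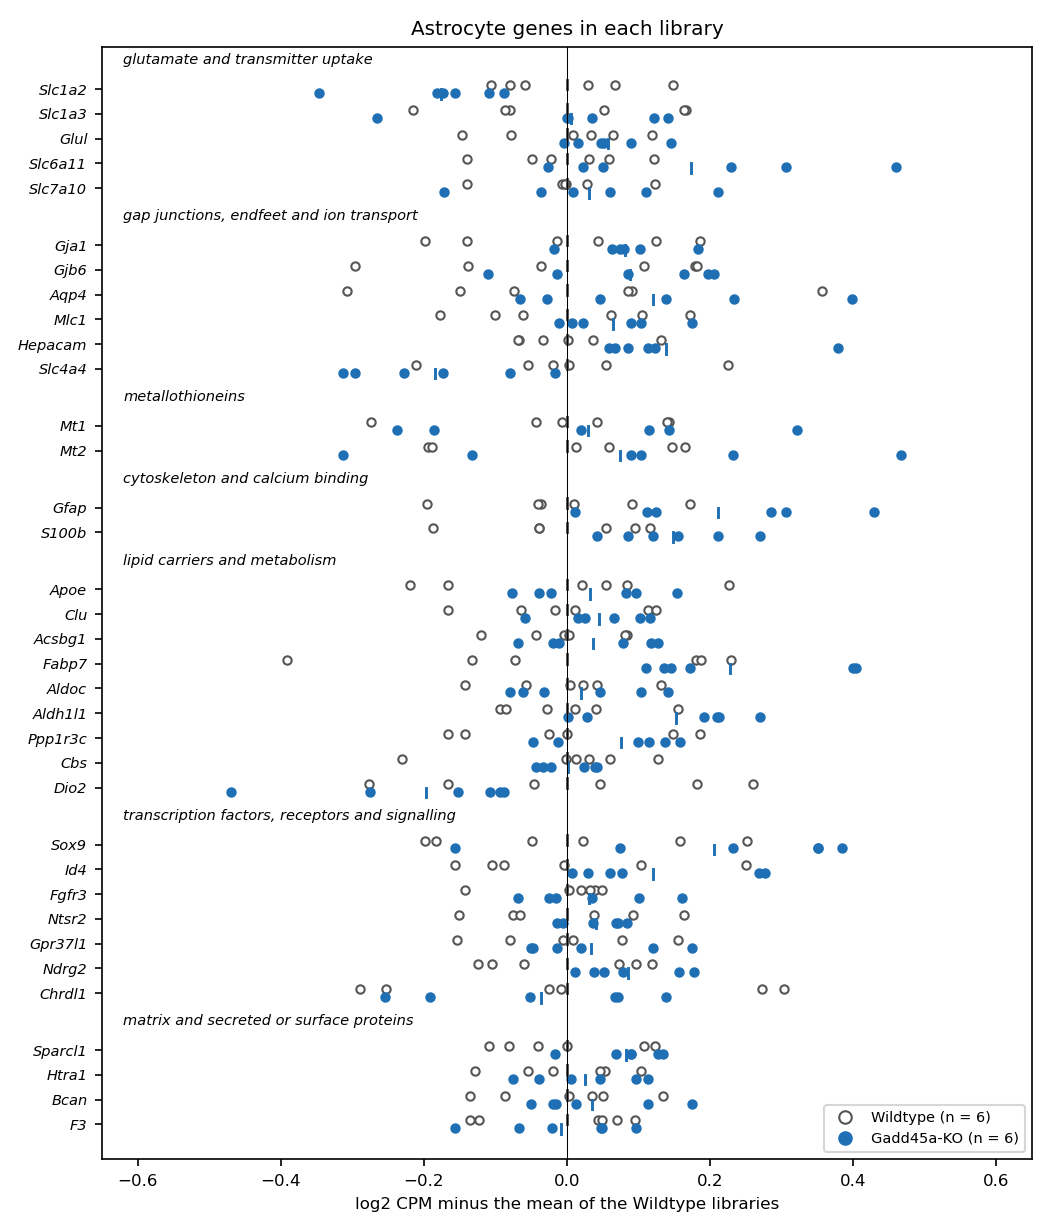
Log2 CPM of each astrocyte gene in each library, as the difference from the mean of the 6 *Gadd45a*-WT (Wildtype) libraries (open points, *Gadd45a*-WT; filled points, *Gadd45a*-KO; vertical ticks, group means), ordered by function. The groups overlap in every row, and the *Gadd45a*-KO mean lies left of 0 by the widest margin for *Slc1a2*, *Slc4a4* and *Dio2*.

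Among the 5 genes of transmitter uptake, the 2 glutamate transporters gave different values. *Slc1a2* encodes GLT-1 (EAAT2), the transporter that clears most synaptic glutamate in the forebrain, and lies on the plus strand of chromosome 2 of NCBIM37 from 102498816 to 102630941. Its lowest, median and highest levels were 2911, 3104 and 3472 CPM under the *Gadd45a*-WT label, and 2464, 2795 and 2949 CPM under the *Gadd45a*-KO label. The groups overlapped only in that *Gadd45a*-KO replicate 5 lay above *Gadd45a*-WT replicate 1. All 6 *Gadd45a*-KO libraries lay below the *Gadd45a*-WT median, as they did for *Slc4a4* and *Dio2*, and no share over all tested genes is given. The log2 fold change of *Slc1a2* was -0.18 (SE 0.05, edgeR adjusted p = 0.103, the smallest among the 35 genes), and the exact two-sided permutation test gave an unadjusted p = 0.00433. DESeq2 gave an adjusted p = 0.0298. *Slc1a2* was also the longest of the 35 transcripts. With an offset for transcript length its log2 fold change was -0.03 (edgeR adjusted p = 0.879), and without *Gadd45a*-KO replicates 2 and 3 it was -0.13 (edgeR adjusted p = 0.435).

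*Slc1a3* encodes GLAST (EAAT1), the second astrocytic glutamate transporter. Its libraries ran from 560 to 729 CPM (median 645) under the *Gadd45a*-WT label and from 541 to 717 CPM (median 659) under the *Gadd45a*-KO label. The groups overlapped over nearly their whole range, and the log2 fold change was 0.00 (95% interval -0.16 to 0.17, edgeR adjusted p = 0.990). Within a library, the CPM of *Slc1a2* over that of *Slc1a3* was 4.47 to 5.30 under *Gadd45a*-WT and 3.92 to 4.56 under *Gadd45a*-KO. The ratio was built after the values of both genes were seen and is given without a test.

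*Glul* encodes glutamine synthetase, which converts the glutamate taken up into glutamine. It had 1212, 1361 and 1456 CPM as lowest, median and highest level under *Gadd45a*-WT, and 1337, 1388 and 1483 CPM under *Gadd45a*-KO. The groups overlapped, with a log2 fold change of 0.06 (95% interval -0.04 to 0.16, edgeR adjusted p = 0.701). *Slc6a11* encodes the astrocytic GABA transporter GAT-3. Its levels were 128, 141 and 153 CPM under *Gadd45a*-WT, and 138, 155 and 193 CPM under *Gadd45a*-KO. The *Gadd45a*-KO libraries with the most *Slc6a11* were replicates 2 and 3, those rich in thalamus markers, and the other 4 lay between 138 and 165 CPM. The log2 fold change was 0.18 (SE 0.08, edgeR adjusted p = 0.290) with all libraries and 0.07 without these 2. *Slc7a10*, a transporter of D-serine and other small neutral amino acids, had a log2 fold change of 0.03 (edgeR adjusted p = 0.887), or 0.10 without *Gadd45a*-KO replicates 2 and 3.

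**Figure D3:**
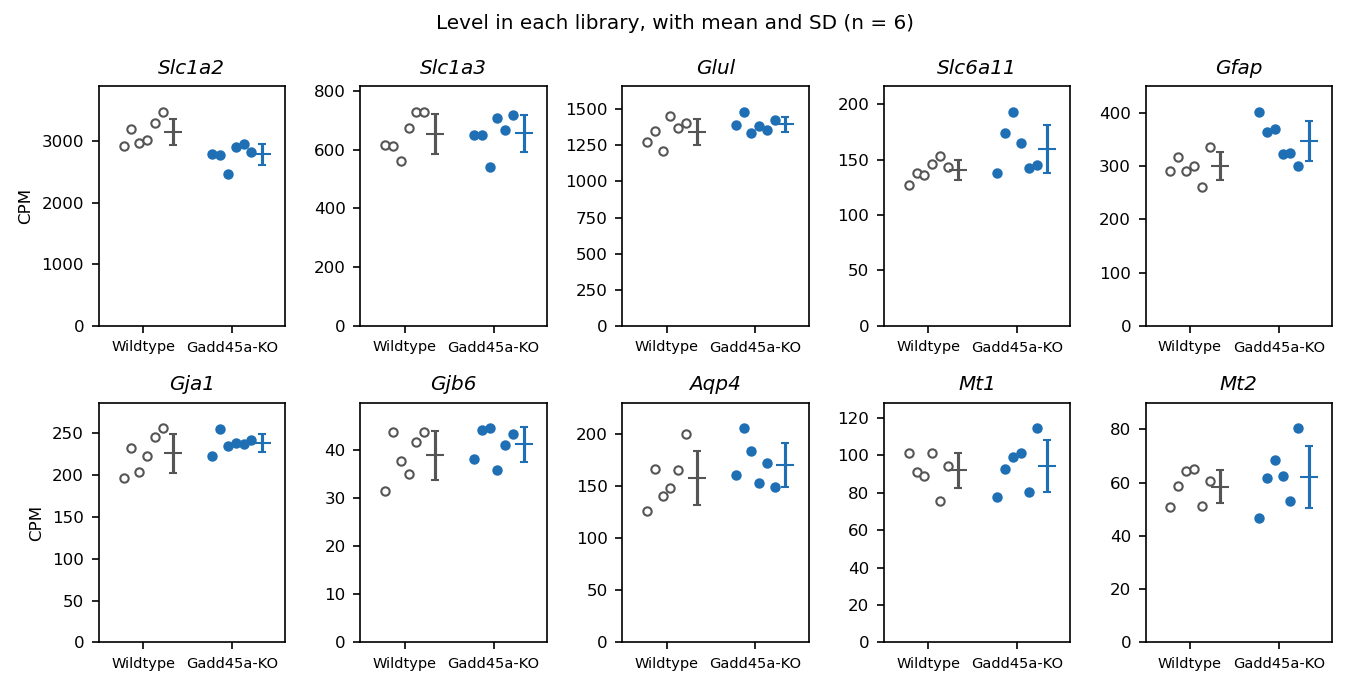
Level in CPM (y axis, from 0) of 10 astrocyte genes in each of the 6 *Gadd45a*-WT (Wildtype, open points) and 6 *Gadd45a*-KO (filled points) libraries, with the group mean and SD beside them. The groups overlap in all 10 panels, least for *Slc1a2*, where the highest *Gadd45a*-KO library (2949 CPM) lies just above the lowest *Gadd45a*-WT library (2911 CPM).

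The 2 gap junction genes gave positive log2 fold changes that stayed within the spread between libraries. *Gja1* encodes connexin 43, the main astrocytic connexin. Its lowest, median and highest levels were 196, 227 and 256 CPM under *Gadd45a*-WT, and 222, 238 and 256 CPM under *Gadd45a*-KO. All *Gadd45a*-KO libraries lay inside the *Gadd45a*-WT range, and the log2 fold change was 0.08 (95% interval -0.05 to 0.20, edgeR adjusted p = 0.681). *Gjb6* encodes connexin 30, with which connexin 43 is co-expressed in astrocytes. It had 31.5, 39.7 and 43.9 CPM under *Gadd45a*-WT, and 35.8, 42.1 and 44.6 CPM under *Gadd45a*-KO. The groups overlapped, with a log2 fold change of 0.08 (95% interval -0.09 to 0.26, edgeR adjusted p = 0.762). *Gadd45a*-KO replicates 2 and 3 were the highest of their group, and without them the log2 fold change was 0.02. Within a library, the CPM of *Gja1* over that of *Gjb6* was 5.30 to 6.35 under *Gadd45a*-WT and 5.28 to 6.64 under *Gadd45a*-KO.

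*Aqp4* encodes aquaporin-4, the water channel of astrocyte endfeet. Its levels were 126, 157 and 200 CPM under *Gadd45a*-WT, and 149, 167 and 206 CPM under *Gadd45a*-KO. The groups overlapped, *Gadd45a*-KO replicates 2 and 3 were the highest of their group, and the log2 fold change was 0.11 (edgeR adjusted p = 0.727) with them and 0.01 without them. *Mlc1* and *Hepacam* encode partner membrane proteins of astrocyte junctions and endfeet. *Mlc1* had a log2 fold change of 0.06 (edgeR adjusted p = 0.744). *Hepacam* had one of 0.14 (edgeR adjusted p = 0.237), and *Gadd45a*-KO replicate 3, at 89.6 CPM, stood apart from the other 5 of its group at 71.8 to 75.0 CPM. Without that library the log2 fold change of *Hepacam* was 0.10, and without replicates 2 and 3 it was 0.09. *Slc4a4*, the sodium bicarbonate cotransporter, was the only gene of these 6 with a negative value, a log2 fold change of -0.19 (edgeR adjusted p = 0.194), which the length offset moved to -0.10 and which was -0.18 without *Gadd45a*-KO replicates 2 and 3. The summed endothelial and mural markers, genes of the vessels that endfeet surround, ran from 281 to 355 CPM under *Gadd45a*-WT and from 334 to 361 CPM under *Gadd45a*-KO, and 9 of 9 had a positive log2 fold change. The exact two-sided permutation p of the sum was 0.0303, unadjusted. It was the smallest over all marker lists, and no test of these lists was planned. The part of vessel cells in the values of the endfeet genes was not tested.

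The metallothionein genes *Mt1* and *Mt2* lie next to each other on chromosome 8, *Mt2* from 96696518 to 96697467 and *Mt1* from 96702989 to 96704225 on the plus strand of NCBIM37. Metallothioneins bind zinc and copper, and their genes are known to respond to metals through metal response elements and to glucocorticoids. The RefSeq promoter windows of both genes (build GRCm38.p6, from 250 bases before the annotated start to 30 bases after it) are shown because they carry the letters of the metal response element core, which was searched as TGCACNC and TGCGCNC on both strands. Capitals mark each match, and the windows span chr8:94178839-94179118 for *Mt1* and chr8:94172368-94172647 for *Mt2*, both on the plus strand.
Mt1: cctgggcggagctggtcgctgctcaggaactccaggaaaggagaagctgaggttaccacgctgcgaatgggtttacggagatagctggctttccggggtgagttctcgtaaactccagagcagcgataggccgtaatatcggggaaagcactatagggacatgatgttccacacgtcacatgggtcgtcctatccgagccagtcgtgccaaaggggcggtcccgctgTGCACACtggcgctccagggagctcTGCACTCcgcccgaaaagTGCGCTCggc
Mt2: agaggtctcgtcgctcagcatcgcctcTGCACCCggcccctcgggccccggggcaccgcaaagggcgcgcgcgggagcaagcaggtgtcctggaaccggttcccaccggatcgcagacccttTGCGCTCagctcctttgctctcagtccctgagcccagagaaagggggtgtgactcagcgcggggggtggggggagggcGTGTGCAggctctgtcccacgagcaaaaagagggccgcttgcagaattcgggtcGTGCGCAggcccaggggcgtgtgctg
*Mt1* held 3 cores and *Mt2* held 4. Over all 32851 windows of 300 bases in the table, 25.7% held at least 1 core, 1.97% at least 3 and 0.517% at least 4. Of the 35 astrocyte genes, 30 had a window, 10 of these had a core, and only *Mt1* and *Mt2* had 3 or more. The full consensus of the glucocorticoid response element was found in 0 of the 30 and in 0.00913% of all windows. A match describes letters and not a bound site, and nothing follows from the absence of a match in this window.

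*Mt1* had 75.8, 92.8 and 101 CPM as lowest, median and highest level under *Gadd45a*-WT, and 77.7, 96.1 and 115 CPM under *Gadd45a*-KO. *Mt2* had 50.9, 59.7 and 65.3 CPM under *Gadd45a*-WT, and 46.9, 62.3 and 80.5 CPM under *Gadd45a*-KO. For both genes the *Gadd45a*-KO libraries reached above the *Gadd45a*-WT range on the high side, farthest in replicate 6, and *Mt2* also reached below it through replicate 1. The log2 fold change was 0.04 for *Mt1* (95% interval -0.16 to 0.23, edgeR adjusted p = 0.928) and 0.09 for *Mt2* (95% interval -0.15 to 0.32, edgeR adjusted p = 0.828). Without *Gadd45a*-KO replicates 2 and 3 these were 0.02 and 0.05. *Mt2* varied most of the 35 genes among the libraries labelled *Gadd45a*-KO, with a coefficient of variation of 18.9%. The related *Mt3*, the metallothionein of neurons and astrocytes, had 1 core and a log2 fold change of -0.05 (edgeR adjusted p = 0.694). No stretch of 51 bases in the transcripts of *Mt1* or *Mt2* was shared with another protein-coding gene.

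Within the libraries labelled *Gadd45a*-KO, *Mt1* and *Mt2* tended to go up and down together, though no adjusted p was below 0.05. Over these 6 libraries Pearson's r was 0.968 (exact permutation p = 0.00417, adjusted p = 0.05 over 12 relations) and Spearman's rho 0.943 (exact permutation p = 0.0167, adjusted p = 0.20). Without the 2 libraries farthest from the median of *Mt1*, r was 0.905. Under the *Gadd45a*-WT label, r over 6 libraries was 0.354 (exact permutation p = 0.521, adjusted p = 0.568) and rho -0.03 (exact permutation p = 1.00, adjusted p = 1.00), and without the 2 farthest libraries r was 0.379. The difference between the 2 correlations was not tested. *Gadd45a*-WT replicate 1 had the most *Mt1* and the least *Mt2* of its group.

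Correlations were also computed for pairs of transporters and connexins. As for *Mt1* and *Mt2*, none of them had an adjusted p below 0.05. For *Gja1* and *Gjb6*, r was 0.842 under *Gadd45a*-WT (exact permutation p = 0.0417, adjusted p = 0.125; rho 0.886, p = 0.0333, adjusted p = 0.20) and 0.508 under *Gadd45a*-KO (exact permutation p = 0.310, adjusted p = 0.420; rho 0.20, p = 0.714, adjusted p = 0.857). Without the 2 farthest libraries these became 0.582 and -0.04. For *Slc1a2* and *Slc1a3*, r was 0.736 under *Gadd45a*-WT (exact permutation p = 0.114, adjusted p = 0.273; rho 0.657, p = 0.175, adjusted p = 0.420) and 0.890 under *Gadd45a*-KO (exact permutation p = 0.0375, adjusted p = 0.125; rho 0.771, p = 0.103, adjusted p = 0.411). Without the 2 farthest libraries r was 0.628 and 0.728. The connexin pair had the higher r under *Gadd45a*-WT and the transporter pair under *Gadd45a*-KO, and neither difference was tested. For *Slc1a2* and *Glul*, r was 0.527 under *Gadd45a*-WT (exact permutation p = 0.288, adjusted p = 0.420; rho 0.60, p = 0.242, adjusted p = 0.446) and 0.256 under *Gadd45a*-KO (exact permutation p = 0.615, adjusted p = 0.615; rho -0.09, p = 0.919, adjusted p = 1.00), and without the 2 farthest libraries 0.317 and -0.62.

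The 2 genes of the cytoskeleton and calcium binding had log2 fold changes toward higher levels under the *Gadd45a*-KO label without passing the test. *Gfap* encodes the intermediate filament protein of astrocytes. Its lowest, median and highest levels were 260, 296 and 336 CPM under *Gadd45a*-WT, and 301, 344 and 402 CPM under *Gadd45a*-KO. The groups overlapped, and all 6 *Gadd45a*-KO libraries lay above the *Gadd45a*-WT median. They also did so for *Hepacam*, *S100b*, *Fabp7*, *Aldh1l1*, *Id4*, *Ndrg2* and *Sparcl1*, and no share over all tested genes is given. The log2 fold change of *Gfap* was 0.21 (SE 0.07, edgeR adjusted p = 0.151), and the exact two-sided permutation test gave an unadjusted p = 0.0303. *S100b*, a calcium-binding protein gene, had a log2 fold change of 0.15 (SE 0.05, edgeR adjusted p = 0.193), with 78.2 to 96.5 CPM under *Gadd45a*-WT and 91.6 to 107 CPM under *Gadd45a*-KO. Oligodendrocyte markers had a positive log2 fold change in 10 of 10 cases and 0 were called at 1% FDR in edgeR, with 9 at an unadjusted p below 0.05. Their sum was 2522 to 4008 CPM under *Gadd45a*-WT and 3269 to 4053 CPM under *Gadd45a*-KO leaving aside replicate 3 with 7996 CPM (exact two-sided permutation p = 0.0649 over all 12, unadjusted and not planned). Their part in the values of *Gfap* and *S100b* was not tested. The log2 fold changes were 0.17 for *Gfap* and 0.12 for *S100b* without *Gadd45a*-KO replicates 2 and 3.

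Of the 9 genes of lipid carriers and metabolism, 7 had a positive log2 fold change, 0 passed 5% FDR in edgeR or DESeq2 and 3 had an unadjusted edgeR p below 0.05. The shares over all tested genes were 51.8% positive, 4.55% and 5.16% past 5% FDR in edgeR and DESeq2, and 13.7% at the unadjusted level. The lipoprotein genes *Apoe* and *Clu*, which carry cholesterol and lipids between brain cells, had log2 fold changes of 0.03 and 0.04, with 95% intervals of -0.12 to 0.18 and -0.07 to 0.15. *Acsbg1*, an acyl-CoA synthetase gene, and *Aldoc*, the brain aldolase of glycolysis, had 0.04 and 0.02. No 95% interval of these 4 genes reached beyond 0.18 in size. *Aldh1l1*, a folate enzyme gene widely used to mark astrocytes, had 38.7 to 46.0 CPM under *Gadd45a*-WT and 41.3 to 49.8 CPM under *Gadd45a*-KO, with a log2 fold change of 0.15 (SE 0.05, edgeR adjusted p = 0.182), or 0.13 without *Gadd45a*-KO replicates 2 and 3. *Fabp7*, the brain fatty acid binding protein gene, had 11.8 to 18.2 CPM and 16.7 to 20.5 CPM, with a log2 fold change of 0.22 (SE 0.10, edgeR adjusted p = 0.347), or 0.13 without these 2 libraries. The groups overlapped for both genes. *Ppp1r3c*, which encodes a subunit that targets a protein phosphatase to glycogen, had a log2 fold change of 0.07, and *Cbs*, cystathionine beta-synthase, had 0.00. *Dio2*, the deiodinase gene through which astrocytes supply neurons with active thyroid hormone, had 52.5 to 76.2 CPM under *Gadd45a*-WT and 45.9 to 59.9 CPM under *Gadd45a*-KO. All 6 *Gadd45a*-KO libraries lay below the *Gadd45a*-WT median, as for *Slc1a2* and *Slc4a4*. The log2 fold change of *Dio2* was -0.20 (SE 0.09, edgeR adjusted p = 0.323), or -0.12 without *Gadd45a*-KO replicates 2 and 3.

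The 7 genes of transcription factors, receptors and signalling gave 6 positive log2 fold changes, with 0 past 5% FDR in edgeR or DESeq2 and 0 at an unadjusted edgeR p below 0.05, beside the same shares over all tested genes. *Sox9*, a transcription factor gene of the astrocyte lineage, had 16.3 to 22.2 CPM under *Gadd45a*-WT and 16.8 to 24.4 CPM under *Gadd45a*-KO, and a log2 fold change of 0.21 (SE 0.10, edgeR adjusted p = 0.366), or 0.13 without *Gadd45a*-KO replicates 2 and 3. *Id4*, an inhibitor of basic helix-loop-helix factors, had a log2 fold change of 0.12 (edgeR adjusted p = 0.532), or 0.04 without the same 2 libraries. The receptor genes *Fgfr3* (a fibroblast growth factor receptor), *Ntsr2* (a neurotensin receptor) and *Gpr37l1* (a G protein-coupled receptor of glia) had log2 fold changes of 0.03, 0.04 and 0.03. *Fgfr3* had the smallest standard error of all 35 genes, 0.04, and a 95% interval from -0.06 to 0.13. *Ndrg2*, an abundant cytoplasmic protein gene of astrocytes, had 0.08 (edgeR adjusted p = 0.529). *Chrdl1*, a secreted antagonist of bone morphogenetic proteins, was the least abundant gene, and its log2 fold change of -0.05 had the largest standard error, 0.11.

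The 4 genes of matrix and secreted or surface proteins had log2 fold changes between -0.01 and 0.08. *Sparcl1* had a log2 fold change of 0.08 (edgeR adjusted p = 0.513). *Htra1*, a secreted serine protease gene, had 0.02, and *Bcan*, the brevican gene of the perineuronal matrix, had 0.04. *F3*, the tissue factor gene that starts coagulation, had -0.01. The bounds of the 95% intervals over these 4 genes were -0.12 and 0.18.

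The longest transcripts held the 3 lowest values. The 4 longest of the 35 transcripts were those of *Slc1a2* (11595 nt), *Slc4a4* (7931 nt), *Dio2* (5813 nt) and *Aqp4* (5125 nt), and 3 of these 4 had the lowest log2 fold changes of all 35 genes. All tested genes were put in 5 bins of equal size by transcript length. In the bin of the longest, 4774 nt or more, the median log2 fold change over all genes was -0.04 and 8.95% were called at 1% FDR, against 0.672% in the bin of the shortest. The 4 astrocyte genes in the longest bin had a median log2 fold change of -0.18. In the 4 shorter bins, from the shortest on, the medians of the astrocyte genes were 0.06, 0.03, 0.07 and 0.09, and 28 of these 31 genes were positive. Only 0.978% of the tested genes had a transcript as long as that of *Slc1a2*. An offset fitted per library to transcript length moved *Slc1a2* from -0.18 to -0.03, *Slc4a4* from -0.19 to -0.10 and *Dio2* from -0.20 to -0.15, and *Aqp4* from 0.11 to 0.14. It left 29 of the 35 genes positive, with a median of 0.04. Across the 35 genes, which share libraries and are not independent replicates, Pearson's r between the log2 of transcript length and log2 fold change was -0.42 before the offset and -0.27 after it, and Spearman's rho was -0.22 and -0.16, as a description. Over all tested genes r was -0.07 and rho -0.17.

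**Figure D4:**
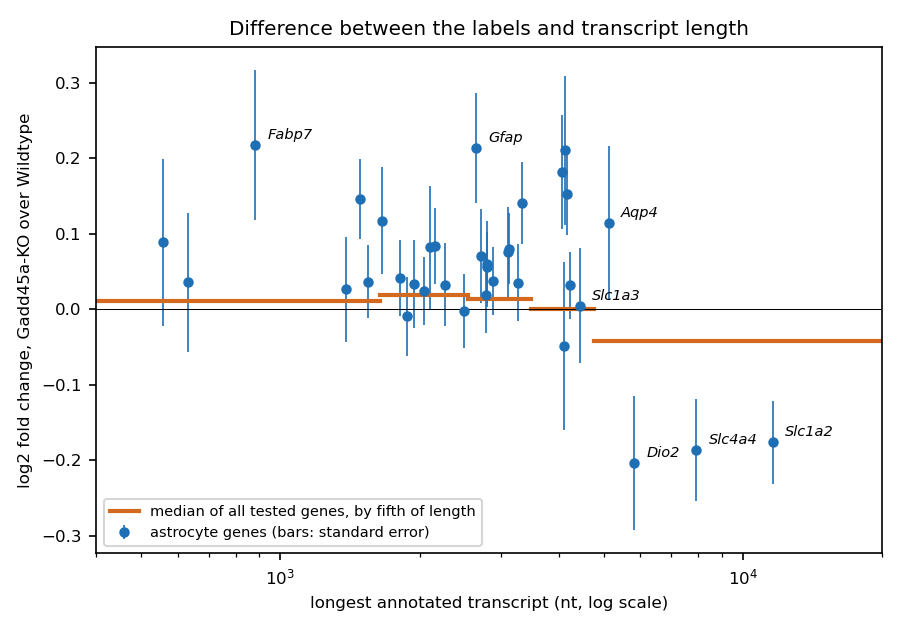
Log2 fold change of *Gadd45a*-KO over *Gadd45a*-WT (y axis, bars show the standard error) against the longest annotated transcript (x axis, nt, log scale) for the 35 astrocyte genes, with the median of all tested genes in each of 5 bins of transcript length as horizontal lines. *Slc1a2*, *Slc4a4* and *Dio2* lie at the long end near -0.2, where the median of all genes is -0.04.

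In the libraries rich in thalamus markers, some astrocyte genes were highest and some lowest, at shares not far above those over all tested genes. *Gadd45a*-KO replicates 2 and 3 were the 2 highest of their 6 libraries for 5 genes, *Slc6a11*, *Gjb6*, *Aqp4*, *Fabp7* and *Id4*, as for 10.4% of all tested genes. They were the 2 lowest for another 5, *Slc1a2*, *Slc1a3*, *Slc7a10*, *Dio2* and *Chrdl1*, as for 8.98% of all tested genes. For the remaining 25 genes they held neither place. *Dio2* had 52.6 and 45.9 CPM in these libraries and 57.3 to 59.9 CPM in the other 4 of the label. *Fabp7* had 20.5 CPM in both and 16.7 to 17.5 CPM in the other 4. The part of thalamic tissue in these values was not tested. Under the *Gadd45a*-KO label, with 6 libraries, Pearson's r between the mean log2 CPM of the thalamus markers and *Slc6a11* was 0.864 (exact permutation p = 0.0278, adjusted p = 0.125; rho 0.543, p = 0.297, adjusted p = 0.446), and it was -0.58 without the 2 libraries, on which the relation rests. Under *Gadd45a*-WT r was -0.47 (exact permutation p = 0.350, adjusted p = 0.420; rho -0.43, p = 0.419, adjusted p = 0.559), and -0.78 without the 2 farthest libraries. For *Gfap* the same r was 0.453 under *Gadd45a*-KO (exact permutation p = 0.324, adjusted p = 0.420; rho 0.657, p = 0.175, adjusted p = 0.420) and 0.648 under *Gadd45a*-WT (exact permutation p = 0.163, adjusted p = 0.325; rho 0.543, p = 0.297, adjusted p = 0.446). Without the 2 farthest libraries these were 0.498 and 0.102.

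**Figure D5:**
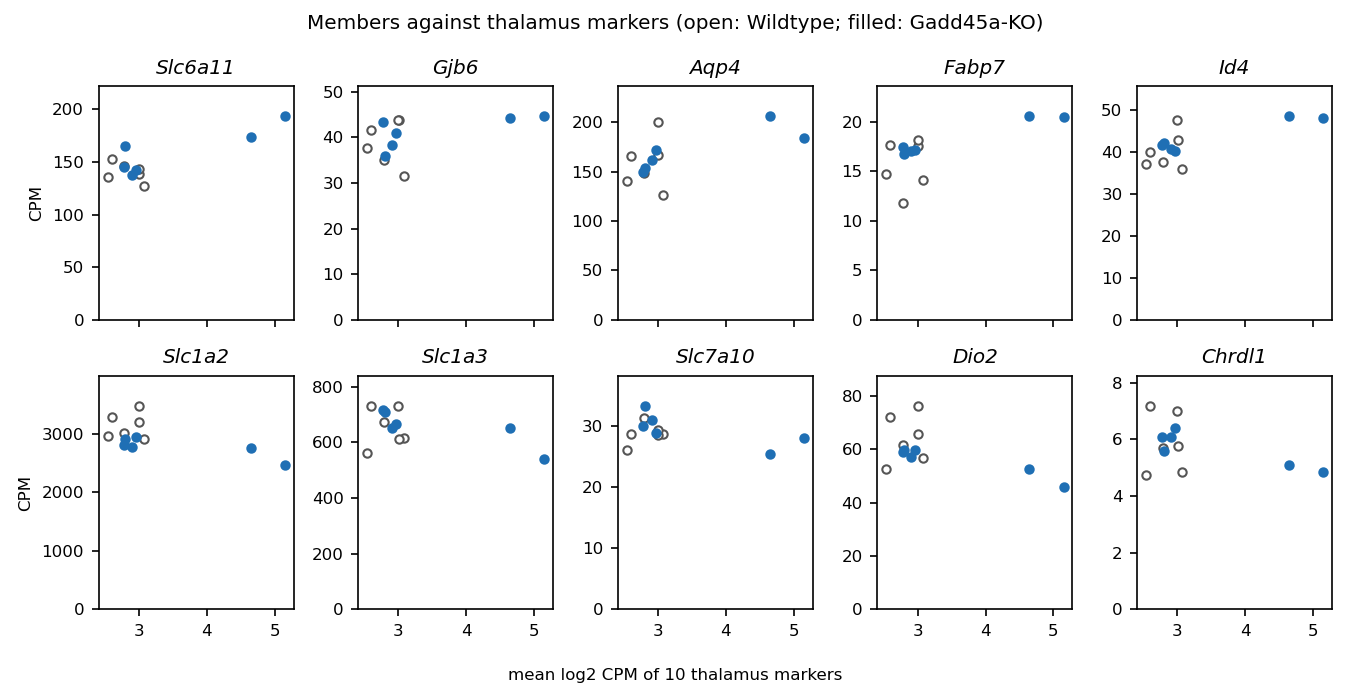
Level in CPM (y axes, from 0) of the astrocyte genes for which *Gadd45a*-KO replicates 2 and 3 were the 2 highest (top row) or the 2 lowest (bottom row) of their label, against the mean log2 CPM of 10 thalamus markers in the same library (x axes; open points, *Gadd45a*-WT; filled points, *Gadd45a*-KO). The 2 libraries stand apart on the x axis, at 4.65 and 5.15, while the other 10 lie between 2.54 and 3.08. The genes were chosen by their levels in *Gadd45a*-KO replicates 2 and 3, so their place in the panels follows from that choice.

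In 2 of the libraries labelled *Gadd45a*-WT, nearly all astrocyte genes lay on the same side of the mean of their group. The mean log2 CPM over the 35 genes ran from 6.90 to 7.14 under *Gadd45a*-WT and from 7.04 to 7.11 under *Gadd45a*-KO. In *Gadd45a*-WT replicate 3 only 1 of the 35 genes lay above the mean of its group, and in replicate 6 of that label 34 did. In *Gadd45a*-WT replicates 1, 2, 4 and 5 this number was 8, 22, 23 and 22. Among the libraries labelled *Gadd45a*-KO it lay between 9 and 24. The levels were scaled per library, and no share over all tested genes is given beside these counts. In *Gadd45a*-WT replicates 3 and 6, neuron markers summed to 14497 and 13243 CPM, and oligodendrocyte markers to 4008 and 3056 CPM. Microglia markers summed to 386 and 427 CPM, and endothelial and mural markers to 288 and 355 CPM. Whether the shift was particular to astrocyte genes was not tested. *Gadd45a*-WT replicates 3 and 6 stood at opposite ends of their group. Without *Gadd45a*-WT replicate 3 the count of positive log2 fold changes was 26 of 35, and without replicate 6 it was 32. The median coefficient of variation was 8.05% over the *Gadd45a*-WT libraries and 6.37% over the *Gadd45a*-KO libraries, and the range over all genes and both labels was 2.62% (*Cbs* under *Gadd45a*-KO) to 18.9%.

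Other genes of the same functions gave a like picture at 1% FDR in edgeR. Of 50 further astrocyte-enriched genes tested, 0 were called, 7 had an unadjusted p below 0.05, 37 had a positive log2 fold change and the median was 0.07. Over all tested genes, 2.65% were called, 13.7% had an unadjusted p below 0.05 and 51.8% were positive, and each list in this paragraph is to be read beside these shares. *Kcnj10*, the Kir4.1 potassium channel gene of astrocytes, had a log2 fold change of 0.18 (edgeR adjusted p = 0.295). *Slc14a1*, a urea transporter gene named here after its value was seen, had 18.7 to 21.4 CPM under *Gadd45a*-WT and 21.1 to 23.1 CPM under *Gadd45a*-KO, with a log2 fold change of 0.16 (edgeR adjusted p = 0.0412). Of 30 genes of reactive astrocytes tested, 28 had a positive log2 fold change, the median was 0.14, 0 were called and 3 had an unadjusted p below 0.05. Of 19 genes of glutamate and GABA handling in other cells, 0 were called, 2 had an unadjusted p below 0.05 and 14 were positive. Among them, *Slc1a1*, the neuronal glutamate transporter EAAT3, had a log2 fold change of -0.05 (edgeR adjusted p = 0.573). Of 11 other connexin and pannexin genes tested, 0 were called, 2 had an unadjusted p below 0.05 and 9 were positive. Among 15 genes of metal handling, 7 were positive, 2 had an unadjusted p below 0.05 and 1 was called, *Atp7a*, a copper-transporting ATPase gene. It had 3.79 to 6.37 CPM under *Gadd45a*-WT, 2.44 to 3.51 CPM under *Gadd45a*-KO and a log2 fold change of -0.77 (SE 0.13, edgeR adjusted p = 0.00235). Of 15 glucocorticoid-induced genes, 0 were called, 1 had an unadjusted p below 0.05, 9 were positive and the median log2 fold change was 0.02.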

How the data were processed

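Poly(A) RNA of hippocampi from 12 mice (6 libraries per label) was sequenced with a stranded kit. The authors aligned the reads with TopHat 1.4.1 to NCBIM37/mm9 and deposited unnormalized read counts per Ensembl gene made with HTSeq 0.5.4p3, and the submitters' processing notes also name DESeq 1.16.0. Reads without a gene stayed out of library sizes. They were 12.64% to 13.91% of the reads under *Gadd45a*-WT and 11.47% to 12.57% under *Gadd45a*-KO, ranges that did not overlap. The part of this difference in the results was not tested. Of 37991 gene IDs, 37205 matched the GENCODE annotation of the same build, which gave names and lengths. The 35 genes, their grouping by function and the other lists were chosen with earlier results of these data known.

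Counts were filtered and TMM-scaled with edgeR 4.0.16 (R 4.3.3) and tested by its quasi-likelihood method on the label alone at 1% FDR over all genes tested. Log2 CPM used a prior count of 2. Standard errors were the absolute estimate divided by the root of the F statistic. With 6 libraries per label, the smallest exact p is 0.00216 for a difference and 0.00278 for a correlation. Alternatives were DESeq2 1.42.0, RLE factors, 2 other count filters, 5% FDR, the replicate number as a block, a length offset, the thalamus markers as a covariate and leaving out libraries, the pair of *Gadd45a*-KO replicates 2 and 3 having been added after seeing the data. Genes described in full were chosen by function. In each other list, the genes past 1% FDR were named, with *Mt3*, *Kcnj10* and *Slc1a1*, and *Slc14a1* was added after its value was seen. Replicates differed beyond counting error (chi-square per degree of freedom 8.60 to 37.8). The procedures were tested on simulated data. Promoter windows came from RefSeq, and 5 genes without one were left out of the motif search. Figures were drawn with matplotlib 3.10.9.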

Additional observations from a re-analysis of the deposited data

Results flagged for a closer look

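In 2 of 70 groups of 6 libraries (35 genes under 2 labels), the lowest or highest library was separated from the others by a gap larger than Dixon's 95% critical value allows, where chance gives about 1 in 20 groups. *Hepacam*, a junction protein gene of astrocytes, had 89.6 CPM in *Gadd45a*-KO replicate 3 and 71.8 to 75.0 CPM in the other 5 libraries of that label, a gap of 0.818 of the range. *Fgfr3*, a growth factor receptor gene, had 96.4 CPM in *Gadd45a*-WT replicate 3 and 107 to 110 CPM in the other 5, a gap of 0.749 of the range. In the same *Gadd45a*-WT library, 34 of the 35 astrocyte genes lay below the group mean.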

How the results depend on the processing

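No astrocyte gene passed 1% FDR under any of the 21 alternatives to the edgeR test, and 698 of their 735 log2 fold changes kept their direction. The exceptions came from 7 genes near 0. *Cbs* was 0.0037 with DESeq2, 0.00371 with RLE factors, 0.0049 without a filter, 0.0054 with at least 10 counts in every library and 0.000933 with the replicate block. *Chrdl1* and *F3* were 0.0384 and 0.0164 with the thalamus covariate, and 0.0397 and 0.0124 without *Gadd45a*-KO replicates 2 and 3. Leaving out each library gave -0.0281 to 0.0619 for *Slc1a3*, -0.0176 to 0.0935 for *Mt1*, -0.00698 to 0.0850 for *Apoe*, -6.23e-06 to 0.0546 for *Aldoc*, -0.0374 to 0.0309 for *Cbs*, -0.0961 to 0.0254 for *Chrdl1* and -0.0278 to 0.0267 for *F3*.

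Over all genes, edgeR called 430 lower and 4 higher. DESeq2 called 661 and 19, 5% FDR gave 726 and 20, the thalamus covariate 237 and 2, and the length offset 251 lower. Without *Gadd45a*-KO replicates 2 and 3, 199 were lower, and leaving out single libraries gave 239 to 467 lower and 3 to 4 higher. The causes were not tested. The ratio of the highest to the lowest RPKM was 402 with the longest transcript as the length.

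No source states that equal replicate numbers share a batch or litter. The deviations of same-numbered libraries correlated at -0.08 to 0.262, 5 of 6 pairs above 0.1, and 4 of 12 libraries correlated best with their own number, a hint of shared variation short of every pair, so the numbers were not treated as pairs. The replicate block called 509 genes lower and 279 with the length offset, 0 astrocyte genes at 1% FDR, and 2 at 5% FDR, *Slc4a4* (edgeR adjusted p = 0.0369) and *Aldh1l1* (edgeR adjusted p = 0.0410), where 5.48% of all tested genes passed, and with the length offset added *Aldh1l1* alone (edgeR adjusted p = 0.0452). It changed no call in the other lists. Depth limits *Chrdl1* most, with 221 reads in its lowest library.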
